A study of Mus musculus with 2 samples.

Results

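The transcripts described here are 36 genes of the S and G2/M phases of the cell cycle, all present among the 32285 genes of the files: 13 that serve DNA replication in S phase, 20 that serve G2 and mitosis, and 3 (Stmn1, Hmgb2 and Tubb5) that cells outside the cycle also express. Their unique molecular identifiers (UMIs, tags that count single RNA molecules) were summed over cells with at least 500 UMIs, at least 250 genes and at most 10% mitochondrial UMIs. The samples were 2 single-cell RNA sequencing libraries of CD11b+ (myeloid) cells sorted from the gingiva of mice after bone marrow transplantation (BMT), labelled 10% Tet2-/- in one group and 10% Tet2+/+ in the other. The 10% is the donor percent of the transplant, the same in both groups. It does not give the genotype of single cells. The TET2 protein is a dioxygenase acting on methylated DNA. All recipients had ligature-induced periodontitis, gum inflammation provoked by a thread around a tooth, for 5 days at 12 weeks after transplantation. Per the labels, cells were sorted as CD45.2+CD11b+ in the 10% Tet2-/- BMT group and as CD45+CD11b+ in the 10% Tet2+/+ BMT group, although CD45.2 stands in both sample titles. Xist without Y-linked transcripts was found in 45.02% and 0.0257% of kept cells, and Y-linked transcripts without Xist in 5.76% and 58.99%. The gate, the sex of the cells and the group therefore cannot be told apart. The labels give neither the number of mice pooled nor their age.

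Each group had 1 library and no replicate, so no test was run and every statement below describes these 2 libraries. Intervals are exact 95% intervals that cover counting error only. The libraries held 93919724 (10% Tet2-/- BMT) and 100782700 UMIs, and 9596 and 11672 cells were kept, with medians of 5920 and 5009 UMIs per cell. The libraries shared 31 barcodes of kept cells. Cells were clustered without the 36 genes and without other cell cycle genes, and clusters were named from marker genes; 5 clusters stayed unnamed. Levels are in CPM, the UMIs of a gene scaled to 1000000 UMIs of the same cells and library.

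Dividing cells copy their DNA in S phase and separate the copies in mitosis after G2. S phase transcripts are driven largely by E2F factors, whereas many G2/M transcripts rise later and are controlled by the DREAM and MYB-MuvB complexes. Promoters of such G2/M genes often hold CCAAT boxes and the cell cycle genes homology region (CHR). In the granulocyte line division is a property of precursors. Granule proteins are made in order, primary granule proteases such as Elane and Mpo first and secondary granule proteins such as Camp and Ltf next, and mature neutrophils have left the cycle.

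The promoters of 6 members are shown to set 3 G2/M genes and Hmgb2, the most abundant member, beside 2 S phase genes. RefSeq windows (build GRCm38.p6) were found for 30 of the 36 members. Each line runs from 250 bases before the annotated start to 30 bases after it, 5′ to 3′ on the strand of the gene. Capitals mark 3 elements, searched on either strand. The CHR was searched as TTTGAA and as its variant TTTAAA. The CCAAT box was searched by its own 5 letters. The E2F site was searched as TTCCCGC, in a first variant as TTGGCGC and in a further one as TTCGCGC. Overlapping matches run together.
Top2a: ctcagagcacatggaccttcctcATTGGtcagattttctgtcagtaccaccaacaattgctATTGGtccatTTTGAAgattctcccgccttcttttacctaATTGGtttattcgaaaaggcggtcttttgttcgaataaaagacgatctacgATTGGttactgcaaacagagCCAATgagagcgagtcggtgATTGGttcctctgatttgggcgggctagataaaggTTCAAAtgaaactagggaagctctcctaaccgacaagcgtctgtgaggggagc
Ube2c: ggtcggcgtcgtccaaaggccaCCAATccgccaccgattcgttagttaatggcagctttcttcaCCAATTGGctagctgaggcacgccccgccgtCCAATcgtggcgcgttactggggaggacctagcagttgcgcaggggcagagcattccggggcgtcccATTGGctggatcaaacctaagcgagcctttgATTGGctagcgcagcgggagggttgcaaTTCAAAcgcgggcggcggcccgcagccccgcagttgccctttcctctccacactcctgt
Ccnb2: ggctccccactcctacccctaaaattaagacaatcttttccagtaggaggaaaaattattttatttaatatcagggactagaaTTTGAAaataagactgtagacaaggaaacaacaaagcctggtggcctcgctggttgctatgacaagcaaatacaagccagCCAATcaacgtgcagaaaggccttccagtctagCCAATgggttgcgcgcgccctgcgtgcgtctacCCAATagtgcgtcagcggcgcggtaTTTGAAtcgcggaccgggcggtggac
Mcm6: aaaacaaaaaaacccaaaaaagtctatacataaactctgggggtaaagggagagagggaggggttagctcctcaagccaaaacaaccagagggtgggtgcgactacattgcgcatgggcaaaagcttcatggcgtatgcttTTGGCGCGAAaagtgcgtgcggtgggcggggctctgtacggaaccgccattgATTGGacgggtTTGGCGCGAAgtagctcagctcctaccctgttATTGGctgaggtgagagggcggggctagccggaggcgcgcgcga
Pclaf: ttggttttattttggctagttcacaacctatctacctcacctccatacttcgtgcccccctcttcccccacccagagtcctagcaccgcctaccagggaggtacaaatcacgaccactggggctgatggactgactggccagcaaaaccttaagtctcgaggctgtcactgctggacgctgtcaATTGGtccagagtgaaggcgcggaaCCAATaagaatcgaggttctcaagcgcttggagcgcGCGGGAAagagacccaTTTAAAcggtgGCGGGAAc
Hmgb2: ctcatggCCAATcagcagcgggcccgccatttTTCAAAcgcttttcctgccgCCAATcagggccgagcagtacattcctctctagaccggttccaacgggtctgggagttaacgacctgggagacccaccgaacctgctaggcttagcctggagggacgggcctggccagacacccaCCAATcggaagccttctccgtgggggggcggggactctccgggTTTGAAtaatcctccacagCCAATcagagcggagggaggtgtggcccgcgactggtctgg
These stretches lie at chr11:99024160-99024439 on the minus strand (Top2a), chr2:164769679-164769958 on the plus strand (Ube2c), chr9:70421525-70421804 on the minus strand (Ccnb2), chr1:128359676-128359955 on the minus strand (Mcm6), chr9:65890073-65890352 on the plus strand (Pclaf) and chr8:57511593-57511872 on the plus strand (Hmgb2). Each ends within the first transcribed bases. Top2a, which encodes the topoisomerase that untangles sister chromosomes, held 6 CCAAT boxes and 2 CHR elements, the nearer CHR beginning 23 bases before the start. Ube2c, the ubiquitin-conjugating enzyme of the anaphase-promoting complex, also held 6 CCAAT boxes, with 1 CHR beginning 29 bases before the start. Ccnb2, a mitotic cyclin, held 3 CCAAT boxes and 2 CHR elements, one of them just after the start. None of these 3 stretches held the E2F letters. Mcm6, a subunit of the replicative helicase, held 4 E2F matches, which overlap in 2 pairs, and no CHR. Pclaf, a partner of the replication clamp, held 2 E2F matches, 2 CCAAT boxes and 1 CHR. Hmgb2, a DNA-bending chromatin protein, held 4 CCAAT boxes and 2 CHR elements. Neither it nor the 3 G2/M genes held the E2F letters in this window. A match is a description of the letters and says nothing about binding.

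Over the full windows, which reach 50 bases past the start, a CHR was present in 15 of 17 windows of G2/M members, 5 of 12 windows of S phase members and 27.6% of all 32851 windows in the table. A CCAAT box was present in 88.2% of G2/M windows, 83.3% of S phase windows and 37.4% of all windows. CHR and CCAAT box occurred together in 14 of the 17 G2/M windows (82.4%), 33.3% of S phase windows and 10.7% of all. The order was the other way for the E2F site, which was present in 58.3% of S phase windows, 23.5% of G2/M windows and 8.07% of all windows.

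The 36 genes together stood at 3524 CPM (3512 to 3537) over all kept cells in the 10% Tet2-/- BMT group and at 2451 CPM (2440 to 2461) in the 10% Tet2+/+ BMT group, a ratio of 1.44 (1.43 to 1.45). Hmgb2 alone supplied 47.1% and 55.6% of those UMIs. Cells with at least 5 UMIs of the 36 genes made up 69.3% (68.4 to 70.2) and 65.9% (65.0 to 66.7) of the libraries. Such cells included 59.4% and 62.2% of neutrophil-like cells, in which Hmgb2 supplied 92.3% and 91.3% of the UMIs. The sum without Stmn1, Hmgb2 and Tubb5, over 33 genes, is therefore used below beside the 36-gene sum, a choice made after these values were seen. The 33 genes stood at 1448 CPM (1440 to 1456) and 817 CPM (812 to 823), a ratio of 1.77 (1.76 to 1.79), and 13.8% (13.1 to 14.5) and 8.46% (7.97 to 8.98) of cells had at least 5 of their UMIs. Against a size rule of 1.5-fold on log2 values with a pseudocount of 10 CPM, 11 members passed a filter of 50 CPM in either library and 100 UMIs over both, and 7 were higher in the 10% Tet2-/- BMT library and 0 lower; of all 2669 genes that passed, 1.87% were higher and 1.27% lower. The 7 were Pclaf, Ube2c, Birc5, Nusap1, Mki67, Top2a and Stmn1.

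Across named classes the 33 genes were highest in primary granule progenitor-like and monocyte-like cells. Primary granule progenitor-like cells, a cluster led by Elane, Mpo and Ctsg, stood at 4653 CPM (4550 to 4758) in the 10% Tet2-/- BMT library and 3341 CPM (3227 to 3458) in the other. This cluster held only 47 and 32 cells, and all of them had at least 5 UMIs of the 33 genes. Monocyte-like cells followed with 3434 CPM (3405 to 3464) and 2162 CPM (2136 to 2189). Osteoclast-like cells, 39 and 25 very deep cells with medians of 44954 and 47186 UMIs, stood at 2005 CPM (1940 to 2072) and 1908 CPM (1833 to 1986). Dendritic-like cells reached 1174 CPM (1144 to 1203) and 1161 CPM (1130 to 1193). Non-classical monocyte-like cells stood at 758 and 496 CPM and macrophage-like cells at 679 and 432 CPM. The lymphoid classes lay in the same range: T cell-like cells stood at 712 and 536 CPM, NK cell or ILC-like cells at 729 and 520 CPM, and B cell-like cells at 470 and 474 CPM. Epithelial-like cells, only 35 and 49 cells, stood at 1323 CPM (1217 to 1436) and 464 CPM (408 to 526), a ratio of 2.85 (2.45 to 3.33), larger than that of any other named class.

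Neutrophil-like cells, 39.8% and 40.3% of kept cells, stood at 99.6 CPM (94.8 to 104.5) and 108 CPM (104 to 113) of the 33 genes. At least 5 UMIs were found in 8 of 3819 cells (0.209%, 0.0905 to 0.412) and 15 of 4703 cells (0.319%, 0.179 to 0.526), at median depths of 3886 and 3841 UMIs. This gives the background of such counts, free RNA included, at that depth only, in cells that have left the cycle. The part of free RNA in this background was not tested. Monocyte-like cells and cluster 9 were deeper, with medians over both libraries of 13125 and 15525 UMIs. Mki67, the proliferation antigen, stood at 5.16 and 4.41 CPM there, and Top2a at 4.01 and 3.76 CPM. The level of most members over neutrophil-like cells was far above 1: Nusap1, a spindle protein, was 213-fold and 63.1-fold higher in monocyte-like cells, and Ccna2, cyclin A, 142-fold and 59.7-fold higher. A few members separated the classes poorly. Hmgb2 was 1.74-fold and 1.25-fold higher in monocyte-like than in neutrophil-like cells, the centromere histone Cenpa 7.64-fold and 4.55-fold, and the replication clamp Pcna 8.65-fold and 5.23-fold.

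Free RNA carried these genes as well. Barcodes with 1 to 50 UMIs, which hold no cell, carried the 36 genes at 2489 CPM (2425 to 2554) in the 10% Tet2-/- BMT library and 1825 CPM (1767 to 1883) in the other. The 33 genes stood at 1064 and 652 CPM there, above their level in neutrophil-like cells. From haemoglobin UMIs, 18.4% and 18.7% of the UMIs in neutrophil-like cells were estimated to be free RNA. At those shares, free RNA alone would give these cells more of the 33 genes than they held, in both libraries. The estimate is therefore too high for the 33 genes in neutrophil-like cells. After subtraction of free RNA, the log2 ratio of the 36 genes between the libraries was 0.53 over all cells (0.52 before) and 0.58 in monocyte-like cells (0.56 before).

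Along the granulocyte clusters these genes were high in progenitor-like cells and cluster 9 and low in cluster 6 and neutrophil-like cells. The immature neutrophil-like cells comprised cluster 9, led by Camp and Fcnb (418 and 399 cells), cluster 18, led by Ltf and Camp (239 and 140 cells), and cluster 6, led by Mmp8 and Ltf (715 and 692 cells). The 13 S phase members summed to 1876 and 1519 CPM in the progenitor-like cells, 961 and 740 CPM in cluster 9, 436 and 233 CPM in cluster 18, 21.0 and 17.96 CPM in cluster 6, and 44.0 and 51.4 CPM in neutrophil-like cells. The 20 G2/M members summed to 2777 and 1822 CPM in the progenitor-like cells and, in cluster 9, to 3114 and 1787 CPM. They then stood at 1047 and 796 CPM in cluster 18, 44.6 and 30.5 CPM in cluster 6, and 55.6 and 56.8 CPM in neutrophil-like cells. The S phase share of the 33-gene UMIs was 40.3% and 45.5% in the progenitor-like cells and 23.6% and 29.3% in cluster 9, so cluster 9 was the more weighted to G2/M in both libraries. Cells with at least 5 UMIs of the 33 genes made up 54.5% (49.6 to 59.4) and 35.6% (30.9 to 40.5) of cluster 9, 21.3% (16.3 to 27.1) and 15.7% (10.1 to 22.8) of cluster 18, and 0.420% (0.0866 to 1.22) and 0.145% (0.00366 to 0.802) of cluster 6.

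**Figure D1:**
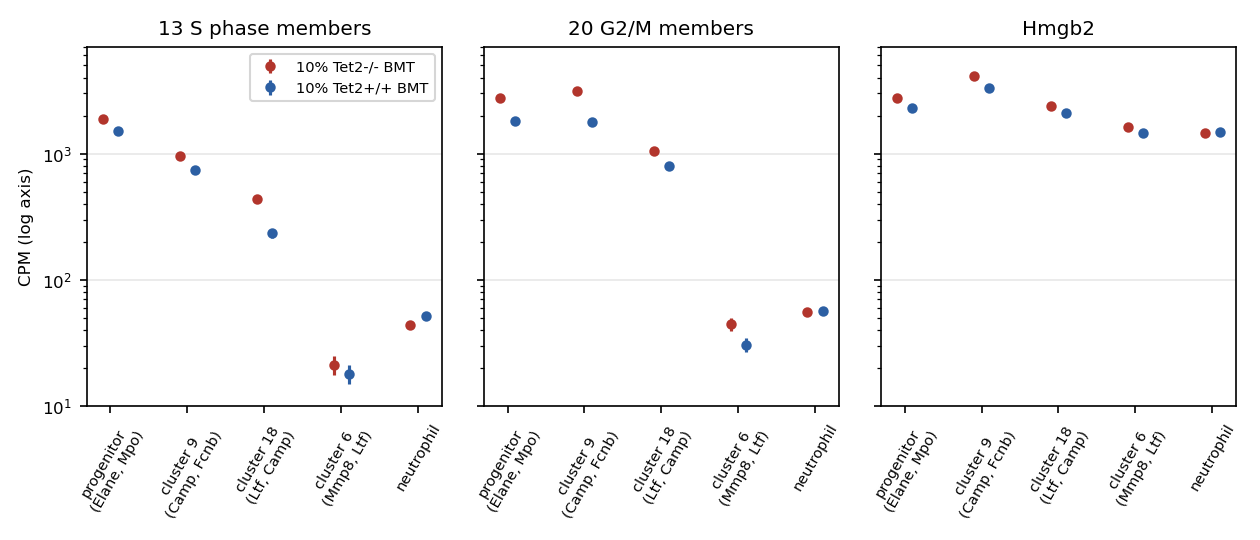
Levels in CPM (log axis) of the 13 S phase members, the 20 G2/M members and Hmgb2 along the granulocyte clusters, ordered by their granule genes and not by time; red points are the 10% Tet2-/- BMT library, blue points the 10% Tet2+/+ BMT library and bars exact 95% counting intervals. The G2/M sum drops from 3114 and 1787 CPM in cluster 9 to 44.6 and 30.5 CPM in cluster 6, while Hmgb2 keeps 1631 and 1465 CPM there.

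Hmgb2 differed from this order. It stood at 2769 and 2300 CPM in the progenitor-like cells, 4118 and 3284 CPM in cluster 9, 2390 and 2088 CPM in cluster 18, 1631 and 1465 CPM in cluster 6, and 1452 and 1479 CPM in neutrophil-like cells. Its transcript was thus still abundant where the 33 genes were near their lowest level, and it supplied 95.4% and 96.0% of the 36-gene UMIs of cluster 6. Stmn1, a microtubule destabiliser, and Tubb5, a beta-tubulin, followed the 33 genes instead. Stmn1 stood at 517 and 352 CPM in cluster 9 and at 4.55 and 4.53 CPM in cluster 6, and Tubb5 at 303 and 178 CPM and at 7.85 and 8.20 CPM.

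**Figure D2:**
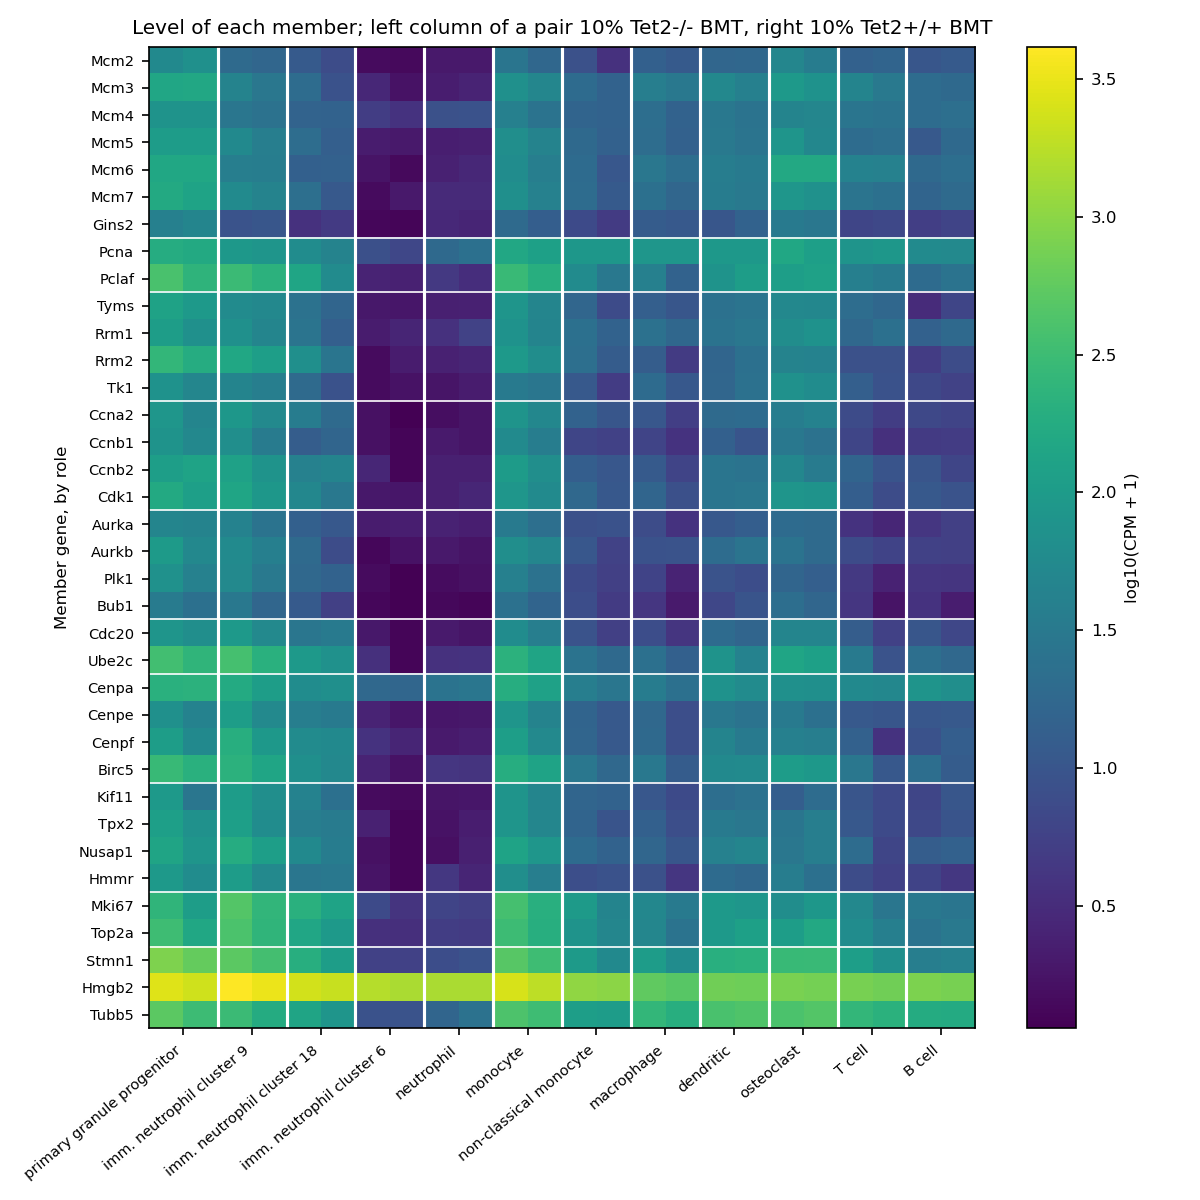
Level of each of the 36 genes (rows, grouped by role) in 12 classes or clusters (column pairs; left the 10% Tet2-/- BMT library, right the 10% Tet2+/+ BMT library), as log10(CPM + 1). Progenitor-like cells, cluster 9 and monocyte-like cells are bright over nearly all rows, cluster 6 and neutrophil-like cells are dark except for Hmgb2, and Pcna and Cenpa are detected in every class drawn.

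Monocyte-like cells, 925 and 792 cells led by F13a1, Fn1, Vcan and Ccr2, held the largest part of these transcripts: 43.2% of the 33-gene UMIs of the 10% Tet2-/- BMT library and 34.8% of those of the other, in 9.64% and 6.79% of the kept cells. The gates can set these shares of cells. The 36 genes stood at 6874 and 4656 CPM, a ratio of 1.48 (1.46 to 1.49), and the 33 genes at 3434 and 2162 CPM, a ratio of 1.59 (1.56 to 1.61). Each of the 36 genes had a higher CPM in the 10% Tet2-/- BMT library, and this held with TMM and with median-of-ratios scaling. The median log2 ratio of all genes that passed the filter was 0.0501 as reported, -0.00498 with TMM and 0.00029 with median-of-ratios scaling. The 36 genes were counted in the same cells and are not 36 separate results. By the size rule, 29 members passed the filter, and 12 of them were higher and 0 were lower. Over all 2940 genes that passed the filter, 1.9% were higher and 1.33% lower by the same rule. The median log2 ratio of the 29 members was 0.57, against 0.05 for all genes that passed. TMM scaling gave 8 members and median-of-ratios scaling 9. Of the genes past the rule in either direction, 58.9% were higher as reported, 46.4% with TMM and 47.5% with median-of-ratios scaling. With cell cycle genes kept in the clustering 6 members were past the rule, and 7 were when the 10% Tet2-/- BMT library was limited to cells with Xist and the other to cells with Y-linked transcripts.

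The replicative helicase comprises Mcm2 to Mcm7 with the GINS complex, to which Gins2 belongs. These 7 members summed to 343 and 223 CPM, a ratio of 1.54 (1.47 to 1.62). Mcm7 stood at 66.3 and 41.0 CPM and Mcm3 at 69.3 and 48.1 CPM. No helicase member passed the size rule, and Mcm2, Mcm4 and Gins2 did not pass the filter. Pcna, the sliding clamp, had one of the smaller differences, 154 CPM (147 to 160) against 118 CPM (112 to 125), whereas its partner Pclaf stood at 297 CPM (288 to 306) against 193 CPM (185 to 202), a ratio of 1.54 (1.46 to 1.62). Among the enzymes that supply nucleotides, Tyms, which makes thymidylate, stood at 80.5 and 46.2 CPM (ratio 1.74, 1.57 to 1.93), and Rrm1, the large subunit of ribonucleotide reductase, at 74.4 and 44.4 CPM (1.68, 1.51 to 1.86). Tk1, thymidine kinase, had the smallest ratio of the 36 members, 1.17 (1.02 to 1.35), at 32.1 and 27.4 CPM, under the filter.

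The largest ratios were found among the G2/M members. Cenpf, a kinetochore protein, had the largest ratio of the 36 members, with 110 CPM (105 to 115) against 53.8 CPM (49.6 to 58.2), a ratio of 2.05 (1.86 to 2.25). Cenpe, the kinetochore motor, stood at 80.7 and 43.6 CPM (1.85, 1.67 to 2.06). Mki67 was the most abundant of the 33 genes, with 363 CPM (354 to 373) against 201 CPM (193 to 209), a ratio of 1.81 (1.72 to 1.90), and Top2a stood at 317 CPM (308 to 326) against 191 CPM (183 to 199), a ratio of 1.66 (1.58 to 1.75). These 4 genes were named for their ratio or abundance, and their intervals cover counting error only.

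The 4 cyclin and kinase members (Ccna2, Ccnb1, Ccnb2 and Cdk1, which together drive entry into mitosis) summed to 319 and 208 CPM, a ratio of 1.53 (1.46 to 1.61). The mitotic kinases Aurka, Aurkb, Plk1 and Bub1 summed to 159 and 109 CPM (1.46, 1.36 to 1.56), and only Aurkb among them passed the filter. Cdc20 and Ube2c, partners of the anaphase-promoting complex, which triggers chromosome separation, summed to 283 and 171 CPM (1.66, 1.57 to 1.75). Ube2c made up most of that, with 222 and 133 CPM. The spindle members Kif11, Tpx2, Nusap1 and Hmmr summed to 350 and 216 CPM (1.62, 1.55 to 1.70), and the centromere members Cenpa, Cenpe, Cenpf and Birc5 to 567 and 353 CPM (1.61, 1.55 to 1.67). Stmn1 stood at 487 and 324 CPM, Tubb5 at 423 and 325 CPM and Hmgb2 at 2529 and 1845 CPM, with ratios of 1.51, 1.30 and 1.37. The S phase share of the 33-gene UMIs was 31.3% and 33.02%, so both phases contributed to the difference.

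**Figure D3:**
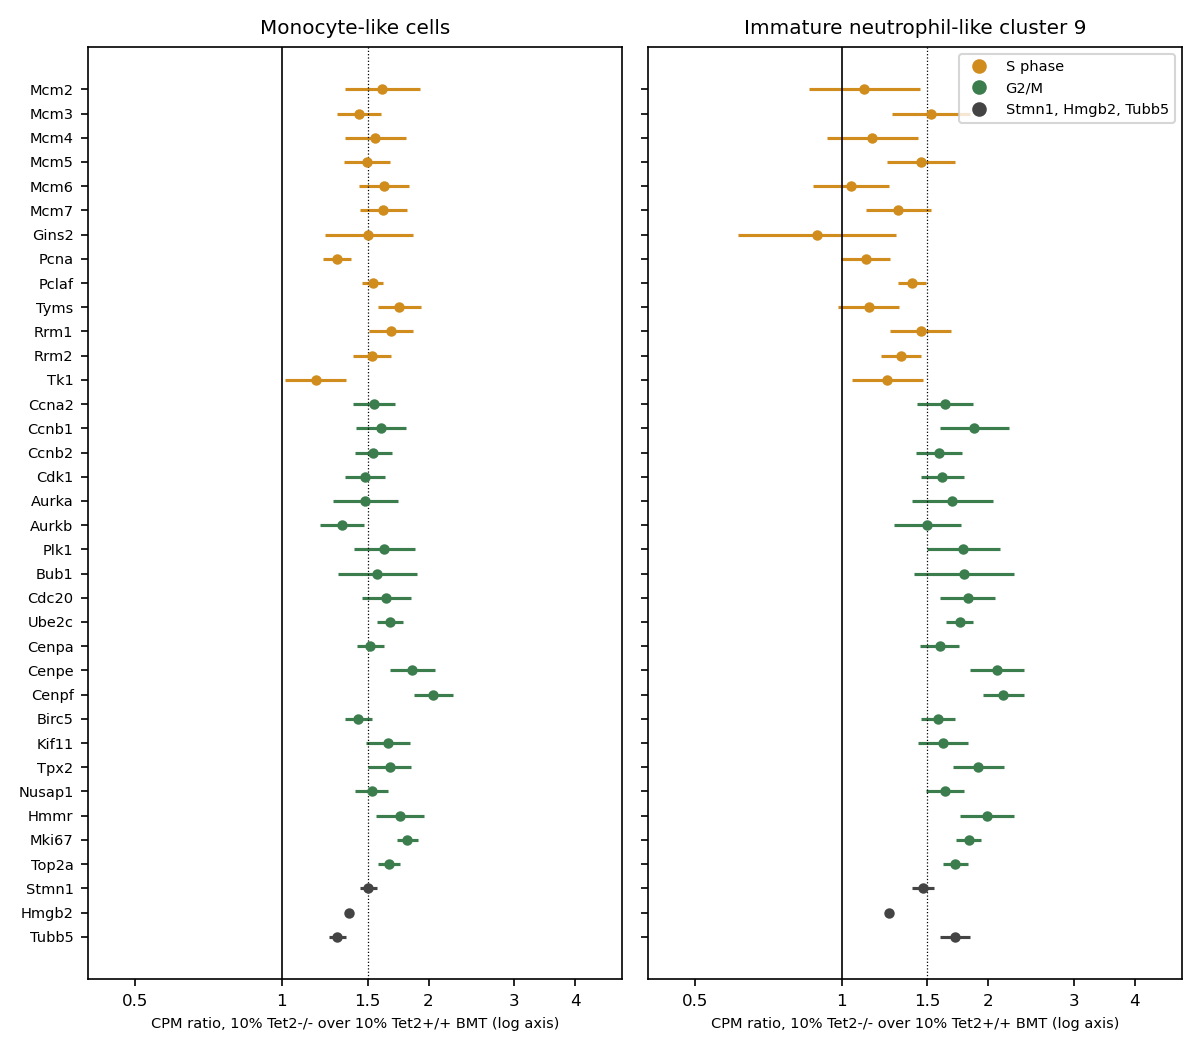
Ratio of the CPM of each of the 36 genes, 10% Tet2-/- over 10% Tet2+/+ BMT, in monocyte-like cells (left) and in immature neutrophil-like cluster 9 (right), on log axes; bars are exact 95% counting intervals, the solid line marks no difference and the dotted line 1.5-fold. In monocyte-like cells all 36 points lie above 1, from Tk1 (1.17) to Cenpf (2.05); in cluster 9 the G2/M members lie to the right of most S phase members, and Gins2 lies below 1.

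Other cell cycle genes, taken from pathway lists, were compared in the same way in monocyte-like cells, where 1.9% of all genes were higher and 1.33% lower. Of 50 other DNA replication genes 10 passed the filter, and 1, Lig1, the replicative DNA ligase (69.6 and 38.6 CPM), was higher; 0 were lower. Of 68 other G2 and mitosis genes 18 passed, and 7 were higher and 0 lower, among them the condensin subunit Smc2 (144 and 84.6 CPM), Cdca8 (125 and 76.6 CPM), of the chromosomal passenger complex, and the mitotic kinesin Kif15 (59.9 and 34.8 CPM). Of 18 replication-dependent histones 11 passed and 2 were higher, Hist1h3c (58.1 and 29.2 CPM) and the linker histone Hist1h1b (568 and 343 CPM). Of 17 chromatin and tubulin genes 14 passed and 2 were higher, Hmgn2 (312 and 192 CPM) and Tubb4b (234 and 145 CPM). In each of these lists 0 genes were lower, and the median log2 ratios were 0.48, 0.53, 0.36 and 0.37. Of 12 G1 genes 2 passed the filter, and of 17 regulators of the E2F, MYB and FOXM1 list 1. The 2 G1 genes, Cdk4 (72.0 and 62.9 CPM) and Ccnd3 (253 and 284 CPM), had a median of 0.00, and the regulator, E2f2, stood at 87.3 and 66.5 CPM, a log2 ratio of 0.35. Of 17 inhibitors 7 passed the filter and 1, Gadd45a (96.0 and 60.2 CPM), was higher, while Btg1, an antiproliferative gene, stood at 898 and 1127 CPM.

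In monocyte-like cells the libraries differed in how many cells carried the transcripts. At least 5 UMIs of the 33 genes were found in 392 cells (42.4%, 39.2 to 45.6) of the 10% Tet2-/- BMT library and 206 cells (26.0%, 23.0 to 29.2) of the other. Within those cells the 33 genes stood at 5828 and 5414 CPM, and within the remaining cells at 155 and 141 CPM, against 99.6 and 108 CPM in neutrophil-like cells. The split used the same 33 genes and so constrains these levels. How the difference between the libraries in the level of the 33 genes divides between number of cells and level per cell was not tested. At a fixed depth of 2000 UMIs per cell, which left out 5 and 4 shallower cells, 24.3% (21.6 to 27.3) and 13.7% (11.4 to 16.3) had at least 5 such UMIs. The number of UMIs per cell was spread over a wide range with few cells in its middle. At least 10 UMIs were found in 30.8% and 15.9% of cells, at least 20 in 27.2% (24.4 to 30.2) and 14.6% (12.3 to 17.3), and at least 100 still in 19.5% and 10.9%. The highest cell had 631 and 621 UMIs of the 33 genes. In cluster 9 the same counts gave 45.0% (40.1 to 49.9) and 30.1% (25.6 to 34.8) of cells at 20 UMIs or more. In neutrophil-like cells, which were shallower, they gave 0 of 3819 and 0 of 4703.

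**Figure D4:**
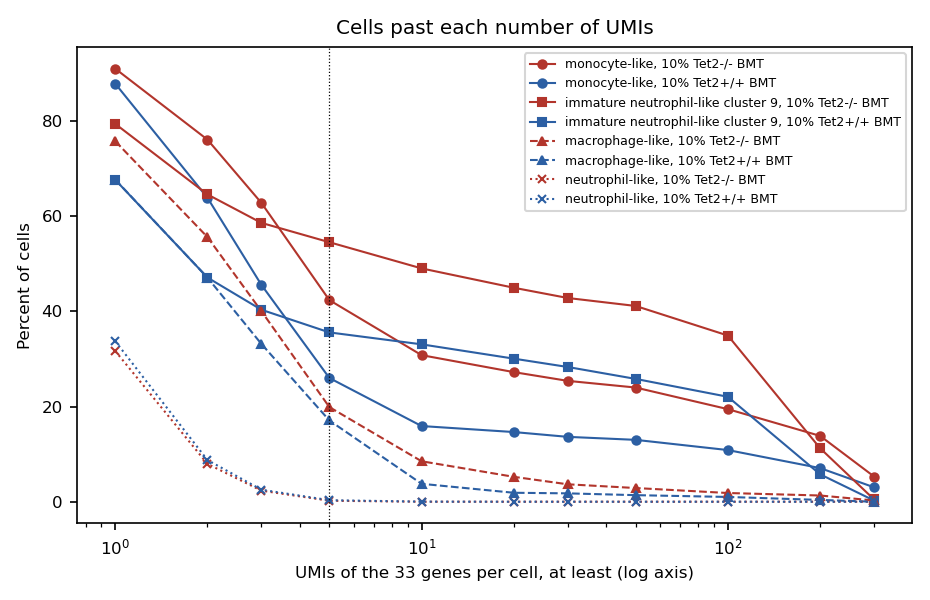
Percent of cells (vertical axis) with at least the number of UMIs of the 33 genes given on the horizontal log axis, for 4 cell sets in the 10% Tet2-/- BMT (red) and 10% Tet2+/+ BMT (blue) libraries; the dotted line marks 5 UMIs. Between 10 and 50 UMIs the monocyte-like curves drop only from 30.8% to 24% and from 15.9% to 13.01%, the red curve lies above the blue one in monocyte-like cells and cluster 9, and neutrophil-like cells reach 0% at 20 UMIs.

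The summed primary granule progenitor, immature neutrophil and neutrophil markers were also higher in monocyte-like cells of the 10% Tet2-/- BMT library. The 7 primary granule progenitor markers were all detected in monocyte-like cells of both libraries and summed to 1278 CPM in the 10% Tet2-/- BMT library and 532 CPM in the other. The 8 immature neutrophil markers summed to 4086 and 2166 CPM and the 12 neutrophil markers to 19830 and 14534 CPM, again with every marker detected in both libraries, while the 8 monocyte markers stood at 9736 and 9318 CPM. Cells with at least 10 UMIs of the 7 progenitor markers made up 20% and 9.09% of the class and were deep, with medians of 27118 and 30444 UMIs. Among those cells the 33 genes stood at 7082 CPM (7012 to 7153) and 7066 CPM (6955 to 7178), a ratio of 1.00 (0.984 to 1.02), with 94.1% and 94.4% of them at 5 UMIs or more. Among cells with fewer than 2 progenitor UMIs, 51.6% and 65.0% of the class, the level was 560 CPM (541 to 580) and 359 CPM (344 to 374), a ratio of 1.56 (1.48 to 1.65), with 16.4% (13.1 to 19.98) and 12.8% (10.1 to 16.0) at 5 UMIs or more. In the cells between, the ratio was 1.15 (1.12 to 1.19). The split by these markers was chosen after the values were seen, and their part in the difference between the libraries was not tested.

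Within monocyte-like cells, those with at least 5 UMIs of the 33 genes were then compared with the rest of the class in each library. Hmgb2, which did not enter that split, stood at 3895 CPM in the cells past it and 658 CPM in the rest of the 10% Tet2-/- BMT library, and at 3819 and 617 CPM in the other. Of 2981 genes that passed the filter, members left out, 13.1% were higher and 7.58% lower by 1.5-fold in both libraries. The cells past the split were deeper, with medians of 20312 and 18797 UMIs against 11903 and 11891. Their doublet scores were higher too, with medians of 0.0954 and 0.0902 against 0.0433 and 0.0452, and the part of doublets was not tested. With cells thinned to 2000 UMIs, 301 and 164 cells were compared with 619 and 624 cells. There the 20 genes named by the rule all kept their direction past 1.5-fold in both libraries. They were named from these same cells, so this is no independent support for them.

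Most listed cell cycle genes were higher in cells past the split: 14 of 14 DNA replication genes, 29 of 29 G2 and mitosis genes, 12 of 13 histones and 17 of 17 chromatin and tubulin genes that passed the filter, in both libraries. Of the G1 genes 1 of 2 was higher, and of the E2F, MYB and FOXM1 regulators 2 of 3. Replication-dependent Hist1h2ap stood at 1644 against 86.6 CPM and at 1729 against 146 CPM. Geminin (Gmnn), which blocks a second round of origin licensing, stood at 141 against 10.4 CPM and at 133 against 12.6 CPM. Of 7 cell cycle inhibitors 0 were higher and 3 lower in both libraries: Btg1 (604 against 1301 CPM, and 719 against 1380), Btg2 (580 against 1131 CPM, and 556 against 982) and Gadd45b (111 against 303 CPM, and 104 against 164). Since these cells were selected by cell cycle transcripts, higher levels of related genes describe the split and are no independent support for it.

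Among other genes, the 10 with the largest excess included 4 primary granule proteins. Elane, neutrophil elastase, stood at 572 CPM in cells past the split against 7.33 CPM in the rest of the 10% Tet2-/- BMT library, and at 320 against 6.04 CPM in the other. Prtn3, proteinase 3, stood at 1119 against 94.6 CPM and at 693 against 65.0 CPM. Ctsg, cathepsin G, stood at 252 against 7.02 CPM and at 135 against 5.62 CPM, and Mpo, myeloperoxidase, at 113 against 3.36 CPM and at 78.8 against 4.35 CPM. The other 6 were Gmnn, Lockd, Knstrn, Fbxo5, Ndc80 and Nucks1, of which Knstrn and Ndc80 encode proteins of the kinetochore or spindle and Fbxo5 an inhibitor of the anaphase-promoting complex.

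The 10 genes lowest in cells past the split were Tppp3, Apoe, Sirpb1c, Cd74, H2-Aa, H2-Ab1, Tmem176b, Cx3cr1, Id3 and Gngt2. Of these, Cd74, H2-Aa and H2-Ab1 encode the invariant chain and both chains of an MHC class II molecule. Cd74 stood at 638 against 2512 CPM in the 10% Tet2-/- BMT library and at 1304 against 4310 CPM in the other. Apoe, apolipoprotein E, stood at 742 against 3825 CPM and at 673 against 2638 CPM, and Cx3cr1, the fractalkine receptor, at 44.9 against 180 CPM and at 64.1 against 208 CPM. Ly6c2, a marker of classical monocytes, was higher in the cells past the split, at 2539 against 1214 CPM and at 2287 against 1113 CPM, while Ccr2, the chemokine receptor of the same cells, stood at 813 against 1379 CPM and at 805 against 1229 CPM.

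In the immature neutrophil-like class as a whole the 36 genes stood at 5277 and 3806 CPM, a ratio of 1.39 (1.37 to 1.40). The 33 genes stood at 2035 and 1231 CPM, a ratio of 1.65 (1.62 to 1.68). Of the 36 genes, 19 passed the filter and 14 were higher by 1.5-fold, 0 lower, against 4.02% higher and 0.596% lower of all 2014 genes. The median log2 ratio of the 19 was 0.63, but that of all genes was 0.12, which leaves an excess of 0.50. TMM scaling, which removes this shift, gave 7 members past the rule of 18 that passed the filter, and a log2 ratio of 0.33 for the 36 genes against 0.47 as reported. With cell cycle genes kept in the clustering, the log2 ratio was 0.14, and the level itself was 1775 and 1610 CPM. That clustering changed which cells the class held. Its primary granule progenitor-like cluster, with Fcnb, Hist1h2ap and Camp among the leading genes, held 328 and 196 cells, against 47 and 32 in the main clustering. Erythroid markers, 7 and 4 of 8 detected, summed to 652 and 13.03 CPM in this class, and the 7 primary granule progenitor markers, all detected, to 559 and 362 CPM. Their part in the result was not tested.

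Cluster 9 carried most of this difference, with 4076 CPM (4029 to 4123) and 2527 CPM (2489 to 2565) of the 33 genes. There 28 members passed the filter and 18 were higher, 0 lower, against 4.72% higher and 0.359% lower of all 1950 genes. The median of all genes was shifted by 0.18, and 8 members were higher with TMM or median-of-ratios scaling. Of the genes past the rule in either direction, 92.9% were higher as reported and 55.1% with either of those scalings. The 2 phases differed in size: the S phase members had a ratio of 1.30 (1.25 to 1.35) and the G2/M members of 1.74 (1.70 to 1.78). Of the 20 G2/M members 18 passed the filter and 17 were higher, whereas of the 13 S phase members 7 passed and 0 were higher.

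Cenpf stood at 190 CPM (180 to 201) and 88.6 CPM (81.7 to 96.0) in cluster 9, Cenpe at 110 and 52.6 CPM, and Hmmr, a spindle protein, at 106 and 53.5 CPM. Ube2c stood at 362 CPM (348 to 376) and 207 CPM (196 to 218), and Mki67 at 456 CPM (441 to 472) and 250 CPM (238 to 262). By contrast Pcna stood at 89.9 and 80.1 CPM, Mcm6 at 37.2 and 35.6 CPM and Gins2 at 8.25 and 9.26 CPM. With TMM or median-of-ratios scaling, Mcm2, Mcm6, Pcna and Tyms joined Gins2 in being lower in the 10% Tet2-/- BMT library, so the direction of these S phase members depends on the scaling. Within the cells of cluster 9 that had at least 5 UMIs of the 33 genes, S phase genes supplied at most 25% of those UMIs in 60.1% and 51.4% of cells and at least 75% in 5.26% and 7.04%. In monocyte-like cells the same bands held 40.1% and 29.1%, and 14.0% and 18.4%.

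Cells of cluster 9 with at least 5 UMIs of the 33 genes, 228 and 142 cells, also differed from the rest of their cluster, 190 and 257 cells. Of 1961 genes that passed the filter, members left out, 25.9% were higher and 13.4% lower by 1.5-fold in both libraries. Elane stood at 715 against 4.87 CPM in the 10% Tet2-/- BMT library and at 613 against 2.97 CPM in the other, and Ms4a3, a gene of granulocyte and monocyte progenitors, at 270 against 28.7 CPM and at 208 against 21.9 CPM. The lowest genes included those of later granules and of the neutrophil surface. Mmp8, neutrophil collagenase, stood at 96.9 against 1001 CPM and at 54.2 against 617 CPM, Mmp9, gelatinase B, at 145 against 1114 CPM and at 124 against 1004 CPM, and Ly6g at 294 against 1166 CPM and at 242 against 1017 CPM. In both libraries, cells of this cluster with the cycle transcripts thus carried more Elane and Ms4a3 and less Mmp8, Mmp9 and Ly6g than the rest. Elane, Prtn3, Gmnn, Lockd, Knstrn, Fbxo5 and Nucks1 were among the 10 highest genes here and in monocyte-like cells.

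In the progenitor-like cells the 33 genes had a ratio of 1.39 (1.34 to 1.45). Here 33 of the 36 members passed the filter and 12 were higher, against 5.14% of all genes, and 0 were lower, against 1.58%. G2/M members led again: Mki67 stood at 243 and 107 CPM, Top2a at 318 and 151 CPM and Kif11, the spindle kinesin, at 92.4 and 27.8 CPM, whereas Mcm5, of the helicase, stood at 104 and 105 CPM. The 8 immature neutrophil markers, all detected, summed to 5494 and 11774 CPM in this small class, and the 14 macrophage markers, 11 and 9 detected, to 343 and 109 CPM, and their part in the result was not tested. In dendritic-like cells the ratio of the 33 genes was 1.01 (0.974 to 1.05), and of 11 members that passed the filter 1, Ube2c (75.5 and 42.2 CPM), was higher and 0 lower, against 0.595% and 0.744% of all genes. In osteoclast-like cells the ratio was 1.05 (0.998 to 1.11), and in B cell-like cells 0.991 (0.924 to 1.06). Whether these ratios differ from those of monocyte-like cells beyond the spread between animals could not be tested.

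In macrophage-like cells the ratio of the 33 genes was 1.57 (1.505 to 1.64), from 679 and 432 CPM, yet cells with at least 5 UMIs were 19.9% (17.1 to 22.9) and 17.1% (14.5 to 19.9). These shares depend on depth. The class joined cluster 7 (622 and 544 cells, median 12296.5 UMIs) with the shallow clusters 19 (127 and 209 cells, 1135.5 UMIs) and 26 (15 and 43 cells, 1199.5 UMIs). In cluster 7 alone the ratio was 1.58 (1.52 to 1.65). Cells with at least 20 UMIs, 40 of 764 (5.24%, 3.77 to 7.06) and 15 of 796 (1.88%, 1.06 to 3.09), differed more. S phase genes made up 50.3% and 58.3% of the 33-gene UMIs in this class, and Pcna, which stood at 82.7 and 83.7 CPM, exceeded Mki67 at 49.6 and 32.0 CPM. Only 4 of the 36 genes passed the filter here, and 1 of them, Stmn1 (105 and 59.8 CPM), was higher and 0 lower, against 0.853% and 1.78% of all genes. The 8 monocyte markers, all detected, summed to 2163 and 3642 CPM in this class, and the 8 erythroid markers, 7 and 6 detected, to 1247 and 24.9 CPM, and their part in the result was not tested.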

How the data were processed

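The authors deposited, for each library, a matrix of UMI counts per gene and barcode (unfiltered), aligned to mm10. Cell Ranger 6.1.2 is named per the submitters' processing notes, and the file headers name Cell Ranger 4. The steps below started from those deposited counts. Cells with at least 500 UMIs, 250 genes and at most 10% mitochondrial UMIs were kept. Counts were scaled to 10000 UMIs per cell and clustered (scanpy 1.11.5, 2000 variable genes without cell cycle genes, 30 principal components, 20 neighbours, Leiden resolution 1 with leidenalg 0.10.2, 27 clusters), and a cluster was named where at least 3 markers of a list were found, unless another list had more markers than its own among the 10 leading genes, secretory gland genes made up at least 3 of these, or its cells were shallow with no own marker among them. Of 20 marker lists, values are given for those named beside a result, and the others are not described. Scrublet marked 0 and 346 cells (0% and 2.96%), so no doublets were removed.

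Counts were summed over cells per library and class. Intervals (scipy 1.17.1) are exact Poisson for levels, conditional binomial for ratios and Clopper-Pearson for shares. With 1 library per group there was no test across samples. Named were all 36 members, the genes of the 7 pathway lists with the largest log2 ratio, and the 10 highest and 10 lowest other genes between cells past and under 5 UMIs, with further lists and markers chosen after their values were seen. That split used the 36 genes at first, and the 33-gene split replaced it after Hmgb2 was seen to dominate. Members and lists were chosen with earlier results of these data known. Alternatives covered cell filters, doublets, depth, free RNA, clustering, scaling, pseudocount and thresholds.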

Additional observations from a re-analysis of the deposited data

Results flagged for a closer look

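Barcodes with 1 to 50 UMIs, which were not analysed as cells, carried the 33 cell cycle genes at 1064 CPM (1022 to 1106) in the 10% Tet2-/- BMT library and 652 CPM (618 to 687) in the 10% Tet2+/+ BMT library, a ratio of 1.63 (1.53 to 1.74). They are listed because this signal lies outside the cells that the comparisons used. The interval covers counting error only, and the difference was not tested.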

How the results depend on the processing

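No paired analysis was possible because each group had 1 library without a replicate number, and for the same reason no library could be left out. No level, share or count below reversed, although single S phase members of cluster 9 did with TMM or median-of-ratios scaling. Of 83 values under alternatives, 39 moved by more than the counting interval (or, for the count of members, by more than 1.5 times) and 44 did not. The log2 ratio of the 36 genes over all kept cells (0.52) was 0.54 with at most 5% mitochondrial UMIs, 0.50 after removal of the top 8% of doublet scores, 0.82 without Stmn1, Hmgb2 and Tubb5, 0.31 with cells thinned to 2000 UMIs, 0.53 with free RNA subtracted, 0.53 with median-of-ratios scaling, 0.36 as a mean of per-cell CPM and 0.80 in Xist-carrying against Y-carrying cells. In monocyte-like cells (0.56) it was, in the same order without free RNA, 0.60, 0.54, 0.67, 0.65, 0.51, 0.64 and 0.51, and it was 0.51 with TMM scaling, 0.48 with cell cycle genes in the clustering and 0.60 at Leiden resolution 0.5. In immature neutrophil-like cells (0.47) it was 0.45 without high doublet scores, 0.73 without the 3 genes, 0.40 thinned, 0.14 with cell cycle genes in the clustering, 0.33 with TMM scaling, 0.45 as a per-cell mean and 0.78 in Xist-carrying against Y-carrying cells. The clustering with cell cycle genes changed which cells this class held.

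The difference between libraries in the share of cells with at least 5 UMIs of the 36 genes was 3.43 percentage points over all kept cells. It was 5.36 points without the 3 genes, 1.09 at 3 UMIs, 6.60 at 10 UMIs and 5.90 in Xist-carrying against Y-carrying cells. In monocyte-like cells (1.72 points) it was 16.4 without the 3 genes, 13.5 thinned, 10.5 at 10 UMIs and 10.6 without the 3 genes and thinned. In immature neutrophil-like cells (1.83 points) it was 7.15, 7.12 thinned and 6.195 with both. The count of members past 1.5-fold in monocyte-like cells (12) was 6 with cell cycle genes in the clustering, 21 with a pseudocount of 1 CPM and 7 in Xist-carrying against Y-carrying cells. The causes were not tested. The Xist setting, the combined thinned setting and all alternatives for immature neutrophil-like cells were added after seeing the data.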

Other observations

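Classes outside the granulocyte and monocyte lines also carried the 33 genes. In T cell-like cells the S phase members had a ratio of 1.05 (0.969 to 1.15) between the 10% Tet2-/- and 10% Tet2+/+ BMT libraries, and the G2/M members of 1.78 (1.62 to 1.95). In osteoclast-like cells, which fuse from mononuclear precursors, the S phase members had a ratio of 1.11 (1.03 to 1.19) and the G2/M members of 1.00 (0.929 to 1.08). S phase members supplied 59.3% and 60.8% of the 33-gene UMIs in NK cell or ILC-like cells, against 31.3% and 33.02% in monocyte-like cells. These are values of 1 library per group, and no difference between classes was tested.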
